A study of Mus musculus with 48 samples.

Results

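Insulin and feeding signal genes were taken as the rows of the deposited gene count table whose gene symbol was Insr, Irs1, Irs2, Igfbp1, Igfbp2, Foxo1, Foxo3, Pik3r1 or Akt2. These are 9 of 23732 genes, and all 9 were measured well enough to be tested. The study profiled liver mRNA of 48 C57BL/6 males, 4 to 6 months old. In the 24 knockout (KO) animals both copies of Bmal1, a clock activator listed as Arntl, were floxed (Bmal1f/f), and EsrCre was present, a Cre recombinase present in all tissues that tamoxifen switches on. The 24 control mice, labelled WT, were Cre-negative littermates that carried the same floxed alleles. Mice of both genotypes were given 5 mg of tamoxifen a day by gavage for 5 days and had free access to food in a cycle with 12 h of light. After 7 days without the drug they spent 36 h in constant darkness and were then killed in darkness at 1 of 6 times 4 h apart, with 4 mice per genotype and time. Times are given as zeitgeber time (ZT) as in the sample labels, although the lights were off throughout. Since Cre was present in all KO and in no WT mice, Cre and the loss of Bmal1 cannot be told apart. The loss was not limited to the liver. Food intake, blood glucose and insulin were not analysed here.

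Insulin binds its receptor (Insr), which phosphorylates the adaptor proteins IRS1 and IRS2; these recruit PI3 kinase, whose regulatory subunit p85 is the product of Pik3r1, and the kinase AKT2 carries the signal on. AKT phosphorylates FOXO1 and FOXO3 and keeps these transcription factors out of the nucleus. In the fasted liver, FOXO proteins are nuclear and raise Irs2, Igfbp1 and genes of glucose production, so that Igfbp1 and Irs2 transcripts rise in fasting and fall after a meal. IGFBP1 and IGFBP2 are secreted proteins that bind insulin-like growth factors. Mice eat mainly in the dark part of the day.

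In WT liver, transcripts of 6 of the 9 genes followed a 24 h rhythm, against 47.9% of all 14836 genes tested. Irs1, Irs2 and Igfbp1 were highest near ZT20 to ZT0, whereas Foxo3 peaked near ZT12 and Foxo1 and Pik3r1 near ZT14 to ZT15. In KO liver no rhythm of the 9 genes passed the test (0 of 9, against 0.991% of all genes), and 2 of the 9, against 3165 of all 14836 genes, had an unadjusted p under 0.05. The rhythm differed between genotypes for Foxo1, Foxo3 and Pik3r1 (3 of 9, against 22.7% of all genes). Averaged over the times, 2 of the 9 genes were lower in KO liver and none was higher (8.77% of all genes were called, 4.91% higher and 3.86% lower). Insr fell by 0.16 and Igfbp2 fell by 0.61 on the log2 scale. At single times, Foxo3 was called at ZT0 and ZT12 and Pik3r1 at ZT4, and 0 of 9 were called at ZT8, ZT16 and ZT20, where 7.66%, 5.30% and 0.998% of all genes were called and 3, 1 and 0 of the 9 had an unadjusted p under 0.05 (3105, 2894 and 1942 of all 14836 genes). Over the 6 times that makes 3 calls in edgeR for the 9 genes, where all 14836 genes gave 4587 calls. DESeq2 made 5 calls for the 9 genes, and its total over all genes is not given here. A gene is called here, and said to rise or fall, where its Benjamini-Hochberg adjusted p over all genes tested was under 0.05 in edgeR's quasi-likelihood test. Levels are CPM, read counts scaled to library size with TMM factors, and the KO minus WT difference is the mean of 6 log2 differences, 1 per time.

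**Figure D1:**
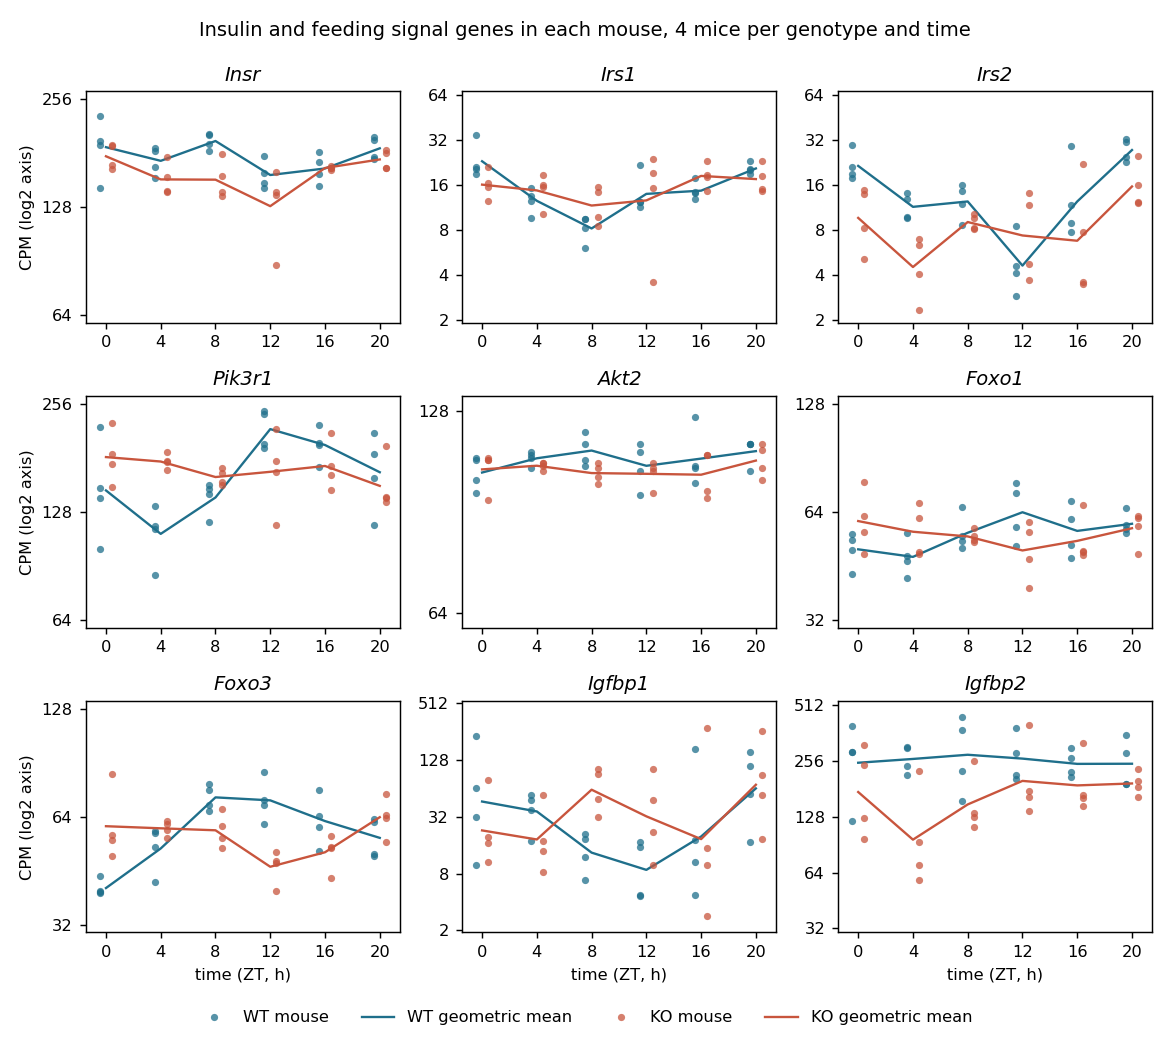
Level of each of the 9 genes in every mouse (points, CPM on a log2 axis) against time (ZT, h), with the geometric mean of the 4 mice of each group as a line, for WT (blue) and KO (red). WT Irs2 ran from 4.97 CPM on average at ZT12 to 27.6 at ZT20, Foxo3 was lowest in WT mice at ZT0, and Akt2 stayed between 94.4 and 125 CPM in all 48 mice.

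The libraries held between 33562272 and 34035644 counts (median 33855278), with TMM factors of 0.898 to 1.14. Arntl lay between 0.979 and 47.8 CPM in WT mice and between 4.6 and 25.6 CPM in KO mice; its KO minus WT average was -0.049 on the log2 scale (edgeR adjusted p = 0.92), and counts over the whole gene do not resolve a deleted exon. At ZT20 and ZT0 the WT mice (35 to 47.8 CPM) lay above every KO mouse of those times (5.06 to 25.6 CPM), and at ZT8 they (0.979 to 1.78 CPM) lay below (5.07 to 19.7 CPM). Library KO mouse 21 of ZT12 stood apart: its log2 expression fell by 0.404 with each doubling of exon length relative to the other libraries, against -0.098 to 0.167 in the other 47. This trend also varied with time in WT, with 0.057 to 0.167 at ZT0 against -0.042 to 0.027 at ZT8. KO mice weighed 27.92 ± 2.52 g and WT mice 30.46 ± 2.08 g (SD, n = 24 each). The cages of ZT4 and ZT8, of ZT12 and ZT16 and of ZT20 and ZT0 were different sets, so that cage set and time cannot be told apart beyond the steps inside a set. Hepatocyte markers summed to 18200 to 29000 CPM in WT and 19400 to 29700 CPM in KO mice (6 of 8 markers in the table, 1 of them called higher, Apoa1), and Ins2, Ctrb1, Pnlip and Cpa1 of the pancreas and Adipoq, Ckm, Acta1 and Myh4 of fat and muscle were at or under 1 count per library on average. The 5 pancreas markers in the table, 1 of which passed the filter and was not called, summed to 15.4 to 53.4 CPM in WT. In KO they summed to 19.3 to 62.2 CPM. The 5 fat and muscle markers in the table summed to 0.03 to 1.32 CPM in WT and 0 to 1.33 CPM in KO. Of 7 Kupffer cell and macrophage, 6 stellate cell and 5 cholangiocyte markers, 0 were called, and 1 of 6 endothelial markers (Kdr) was lower in KO. In bulk liver, fewer cells of a type and less RNA per cell cannot be told apart.

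The genes covered a wide range of levels. Per kilobase of exon, the order in WT liver over all times was Igfbp2 (184 ± 54.7 CPM per kb, SD, n = 24), Igfbp1 (31 ± 38.8), Akt2 (22.5 ± 1.4), Pik3r1 (21.9 ± 6), Insr (19 ± 2.36), Foxo3 (8.02 ± 1.8), Foxo1 (6.47 ± 1.02), Irs2 (2.45 ± 1.4) and Irs1 (1.72 ± 0.678). Igfbp1 to Insr, Foxo3 and Foxo1, and Irs2 and Irs1 were neighbours whose levels differed by less than 1 SD of the more variable gene, whereas Igfbp2 stood above all others. In KO liver the adaptors were in the other order, with Irs1 at 1.73 ± 0.522 and Irs2 at 1.54 ± 0.92 CPM per kb, again within the spread.

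Insr, which encodes the insulin receptor (ENSMUSG00000005534, chr8:3150922-3279617 in mm9), was measured at 145 to 230 CPM in WT mice and 88.3 to 191 CPM in KO mice. At ZT8 the WT mice had 184, 192, 203 and 204 CPM and the KO mice 137, 141, 156 and 180 CPM. All 4 WT values were above all 4 KO values, and this was the only time at which Insr did not overlap between genotypes. Groups that do not overlap were found for 15.4% of all genes at ZT8. At ZT16 the group means were equal to the third digit (164 ± 15.4 CPM in WT, 164 ± 2.17 in KO, SD, n = 4). Averaged over the times KO minus WT was -0.16 ± 0.048 (log2, SE), or 0.893-fold, with an edgeR adjusted p of 0.0264. KO mouse 21 had the lowest value of all 48 mice (88.3 CPM), and with the exon length trend of each library in the model the difference was -0.085 (edgeR adjusted p = 0.111). Adding body weight as a covariate gave -0.18 (edgeR adjusted p = 0.0691). In 11 cages that held 1 mouse of each genotype, killed at the same time, Insr was lower in the KO mouse in 9, and the fit with these cages as pairs gave -0.25 (edgeR adjusted p = 0.114). Without WT mouse 48 of ZT0, the highest value, the adjusted p was 0.0549. No 24 h rhythm of Insr was called in WT (amplitude 0.10 ± 0.051, log2 mean to peak, edgeR adjusted p = 0.244) or in KO (0.18 ± 0.051, edgeR adjusted p = 0.102).

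Irs2, the adaptor that fasting raises (ENSMUSG00000038894, chr8:10986980-11008458), had the largest amplitude among the genes from receptor to kinase in WT liver. Its values were 22.7, 24.4, 30.9 and 32.2 CPM at ZT20 and 17.8, 18.7, 21.1 and 29.5 CPM at ZT0. They were 9.49, 9.7, 12.9 and 14 CPM at ZT4 and 8.63, 11.8, 14.4 and 15.8 CPM at ZT8. At ZT12 they were 2.86, 4.08, 4.54 and 8.4 CPM, so that every mouse of ZT12 lay below every mouse of ZT8, ZT4, ZT0 and ZT20. The mice of ZT12 were of another cage set than the mice of those times. How often WT mice of 2 times lie apart was not counted over all genes. From ZT12 to ZT16, within 1 cage set, Irs2 rose by 1.53 ± 0.48 (log2, SE, edgeR adjusted p = 0.0298; 12.4% of all genes were called in this step). WT mouse 32 of ZT16 had 29.2 CPM, against 7.73, 8.84 and 11.6 in the other 3, and without it the step was 0.91 (edgeR adjusted p = 0.242). The fitted rhythm had an amplitude of 0.87 ± 0.21, a 3.34-fold range from trough to peak, and a peak at ZT22.3 ± 0.9 h (SE, edgeR adjusted p = 0.00276). With the exon length trend in the model its edgeR adjusted p was 0.0266.

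In KO liver Irs2 was lower at ZT0 (5.05, 8.16, 13.8 and 14.8 CPM) and at ZT4 (2.33, 4.04, 6.31 and 6.87 CPM), without overlap with WT at either time. Groups that do not overlap were found for 6.35% of all genes at ZT0 and 13.3% at ZT4. Neither difference was called (-1.06 ± 0.46, edgeR adjusted p = 0.23, and -1.24 ± 0.48, edgeR adjusted p = 0.136, log2 ± SE). At ZT12 the KO mice had 3.67, 4.74, 11.7 and 14 CPM and overlapped with WT (0.78 ± 0.48, edgeR adjusted p = 0.303). The average difference over the times, -0.57 ± 0.19 or 0.674-fold, missed the threshold (edgeR adjusted p = 0.0528). It passed in 3 of 10 alternatives, with total counts in place of TMM factors (0.0429), in DESeq2 (0.0326) and in limma voom with cage as a random block (-0.67, 0.0135). It also passed in 11 of 48 edgeR fits that each left out 1 mouse. In the 11 cages with a mouse of each genotype, Irs2 was lower in the KO mouse in 7. The fit with these cages as pairs gave -0.58 ± 0.27 (edgeR adjusted p = 0.316). The KO rhythm was not called (amplitude 0.50 ± 0.21, edgeR adjusted p = 0.26), and neither was the difference between the rhythms (edgeR adjusted p = 0.233), so that the rhythm of Irs2 is not shown to differ between genotypes.

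Irs1, the other adaptor (ENSMUSG00000055980, chr1:82229676-82287991), was lowest at ZT8 in WT liver. Its WT values were 18.8, 20.5, 21 and 34.1 CPM at ZT0 and 6.02, 8.26, 9.37 and 9.42 CPM at ZT8. The mice of these times, which were of different cage sets, did not overlap. The share of all genes without overlap between these WT times was not counted. The WT amplitude was 0.60 ± 0.13 with a peak at ZT20.9 ± 0.8 h and a 2.29-fold range (edgeR adjusted p = 0.00065). With the exon length trend in the model the amplitude was 0.34 (edgeR adjusted p = 0.0187). In KO the amplitude was 0.26 ± 0.12 (edgeR adjusted p = 0.357); the difference between the rhythms was not called (edgeR adjusted p = 0.23), but it was called without KO mouse 21 (edgeR adjusted p = 0.0379). That mouse had 3.58 CPM of Irs1, against 15.2, 19.1 and 23.8 CPM in the other KO mice of ZT12. Averaged over the times Irs1 differed by 0.076 ± 0.12 between genotypes (edgeR adjusted p = 0.758).

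Both adaptors and Igfbp1, which peaked near ZT21 to ZT22 in WT liver, have promoters in the RefSeq table, and the 150 bases before their start sites are shown because the 3 hold motifs searched for. Capitals mark matches to CACGTG (an E-box, the element that BMAL1 binds) or to CAAAACA (the core of the insulin response sequence, which FOXO proteins bind). On the opposite strand the second motif reads TGTTTTG. The stretches are from GRCm38.p6, 5′ to 3′ on the strand of the gene, chr11:7197637-7197786 (plus strand) for Igfbp1, chr8:11008930-11009079 (minus strand) for Irs2 and chr1:82291440-82291589 (minus strand) for Irs1.
Igfbp1: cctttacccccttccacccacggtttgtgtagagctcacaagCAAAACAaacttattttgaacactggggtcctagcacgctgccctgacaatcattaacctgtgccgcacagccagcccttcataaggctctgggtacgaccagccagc
Irs2: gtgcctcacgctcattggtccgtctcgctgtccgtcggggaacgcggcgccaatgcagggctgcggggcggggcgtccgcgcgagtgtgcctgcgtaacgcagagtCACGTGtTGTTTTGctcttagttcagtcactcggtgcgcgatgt
Irs1: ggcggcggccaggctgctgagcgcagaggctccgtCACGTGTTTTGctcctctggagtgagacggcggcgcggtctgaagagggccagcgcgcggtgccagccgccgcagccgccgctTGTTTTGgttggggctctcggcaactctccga

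In Igfbp1 the insulin response core began 108 bases before the start site and no E-box was matched. In Irs2 an E-box (from -44 to -39) and the insulin response core on the opposite strand (from -37 to -31) were separated by 1 base. In Irs1 the same 2 motifs (from -115 to -110 and from -111 to -105) shared 2 bases, and another insulin response core began at -32. Igfbp2 held an E-box that began at -142. The motifs were searched on both strands in 13 windows of 300 bases (250 before and 50 after the start) that 8 of the 9 genes have; Insr has none in the table. CACGTG was found in 7.15% and CAAAACA in 6.28% of all 32851 windows. Akt2, Foxo1, Foxo3 and Pik3r1 held neither. The windows of the 8 genes held no match to the D-boxes TTATGTAA (0.938% of all windows) and TTACGTAA (0.119%), to TAGGTCA, the core that REV-ERB and ROR proteins bind (2.61%), to the forkhead motif GTAAACA (3.65%) or to the cyclic AMP element TGACGTCA (1.79%). A match is a description of the letters, not a measured binding site.

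Pik3r1, the regulatory subunit of PI3 kinase (ENSMUSG00000041417, chr13:102450716-102538172), changed over the 6 times in WT liver, with its lowest mean at ZT4. The WT values were 85.4, 115, 117 and 133 CPM at ZT4, 120, 144, 148 and 152 at ZT8 and 193, 198, 240 and 245 at ZT12. The mice of ZT12, which were of another cage set, lay above all mice of ZT4 and ZT8. The share of all genes for which this holds was not counted. In KO mice the values were 167, 176, 177 and 188 CPM at ZT4 and 118, 165, 177 and 218 CPM at ZT12. At ZT4 every KO mouse was above every WT mouse, and 13.3% of all genes did not overlap at that time. Pik3r1 was higher in KO there by 0.65 ± 0.18 (log2, SE, 1.57-fold, edgeR adjusted p = 0.0311), where 3.71% of all genes were called. This call was lost in 6 fits that left out 1 of the 8 mice of ZT4, with adjusted p up to 0.11. The WT rhythm had an amplitude of 0.41 ± 0.075, a 1.75-fold range and a peak at ZT15.3 ± 0.7 h (edgeR adjusted p = 0.000114). The KO amplitude was 0.044 ± 0.075 (edgeR adjusted p = 0.91), and the rhythms differed (edgeR adjusted p = 0.00484). The genotype by time interaction was called as well (edgeR adjusted p = 0.02; 20.2% of all genes), and was not called without KO mice 20, 21, 43 and 44 (edgeR adjusted p = 0.0546), 4 libraries that were farthest from their groups in an earlier look at all genes.

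Akt2, the kinase that follows PI3 kinase in the liver (ENSMUSG00000004056, chr7:28376571-28425845), showed neither a rhythm nor a genotype difference that passed a test. Its 48 values lay between 94.4 and 125 CPM. The average difference was -0.050 ± 0.027 (log2, SE, edgeR adjusted p = 0.269) and the WT amplitude 0.012 ± 0.027 (edgeR adjusted p = 0.924). Mice of a group varied little in Akt2, with an SD of 0.091 in WT and 0.078 in KO on the log2 scale. Among 9880 genes with at least 5 CPM this SD was at percentile 9.2 in WT and 1.1 in KO, where the median SD of all genes was 0.15 and 0.17.

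Foxo3, one of the transcription factors that AKT restrains (ENSMUSG00000048756, chr10:41901647-41996561), had the smallest p of the 9 genes in the tests of rhythm in WT, of rhythm difference and of interaction. At ZT0 the WT mice had 39.3, 39.4, 39.7 and 43.8 CPM and the KO mice 49.9, 55.2, 56.8 and 84.1 CPM. At ZT12 the WT mice had 61.1, 68.9, 71.3 and 85.1 CPM and the KO mice 39.8, 47.5, 48.2 and 51 CPM. The groups were apart at both times, in opposite directions. KO minus WT was 0.60 ± 0.13 at ZT0 (1.52-fold, edgeR adjusted p = 0.0114) and -0.62 ± 0.13 at ZT12 (0.651-fold, edgeR adjusted p = 0.00126). Of all genes, 1.64% and 11.6% were called and 6.35% and 10.5% did not overlap at ZT0 and ZT12. The call at ZT0 was lost without KO mouse 46 (0.41, edgeR adjusted p = 0.107) and without WT mouse 48. Averaged over the times the difference was -0.042 ± 0.053 (edgeR adjusted p = 0.688).

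The WT rhythm of Foxo3 had an amplitude of 0.38 ± 0.057, a 1.68-fold range and a peak at ZT11.7 ± 0.6 h (edgeR adjusted p = 5.23e-06). Within 1 cage set, from ZT4 (42, 52.7, 57.5 and 58.4 CPM) to ZT8 (66.4, 68.9, 76.2 and 79.1 CPM), Foxo3 rose in WT by 0.47 (edgeR adjusted p = 0.0336; 2.96% of all genes), without overlap of the mice. This call was lost in 4 fits that left out WT mouse 2, 4, 13 or 16 (edgeR adjusted p up to 0.2) and with total counts in place of TMM factors (0.0688). The share of all genes without overlap between these WT times was not counted. In KO the fitted wave was 0.19 ± 0.057 with a peak at ZT0.5 (edgeR adjusted p = 0.115), not called. The rhythms differed (edgeR adjusted p = 6.95e-06), as did the time courses of any shape (interaction, edgeR adjusted p = 3.52e-05).

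Foxo1, the other FOXO gene and a main driver of glucose production in the fasted liver (ENSMUSG00000044167, chr3:52072259-52154031), had a smaller wave. In WT mice it had 41.9, 46.8, 48.2 and 56 CPM at ZT4 and 51.5, 58.1, 72.1 and 77.1 CPM at ZT12, which overlap. The amplitude was 0.18 ± 0.056 with a peak at ZT14.2 ± 1.2 h (edgeR adjusted p = 0.0297), and the call was lost with total counts in place of TMM factors (edgeR adjusted p = 0.173) and in 6 fits that left out 1 WT mouse. In KO the amplitude was 0.12 ± 0.056 (edgeR adjusted p = 0.332). The rhythms differed (edgeR adjusted p = 0.0218), and not without KO mouse 44 of ZT0 (edgeR adjusted p = 0.0507) or without the 4 KO libraries named above (0.0579). Averaged over the times the difference was -0.001 ± 0.058 (edgeR adjusted p = 0.992).

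**Figure D2:**
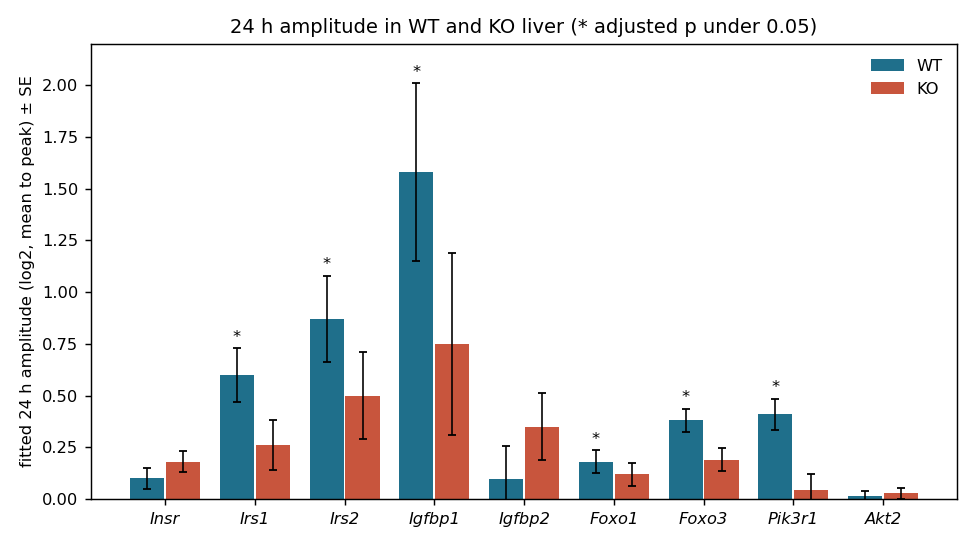
Fitted 24 h amplitude (log2, mean to peak, bars) with its SE (error bars) for the 9 genes in WT (blue) and KO (red); an asterisk marks an edgeR adjusted p under 0.05. Asterisks stand over 6 WT bars, from Foxo1 (0.18) to Igfbp1 (1.58), and over no KO bar.

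Igfbp1, the fasting-raised binding protein (ENSMUSG00000020429, chr11:7097785-7102549), had the largest fitted amplitude of the 9 genes and the largest spread between mice of a group. The WT values were 4.68, 4.74, 15.3 and 17.3 CPM at ZT12 and 17.1, 56.2, 111 and 156 CPM at ZT20. They were 9.84, 32, 64.7 and 227 CPM at ZT0. The WT rhythm had an amplitude of 1.58 ± 0.43, an 8.9-fold range and a peak at ZT21.8 ± 1.1 h (edgeR adjusted p = 0.0158), and without WT mouse 45 of ZT0 (227 CPM) its adjusted p was 0.0526. In KO mice Igfbp1 had 31.9, 49.1, 91 and 103 CPM at ZT8, above the 6.77, 12, 18.7 and 20.8 CPM of the WT mice. This was its only time without overlap, and 15.4% of all genes did not overlap at ZT8. KO minus WT was 2.24 ± 1.12 at ZT8 and 2.12 ± 1.13 at ZT12, against -1.42 ± 1.08 at ZT0 (log2, SE; edgeR adjusted p = 0.246, 0.224 and 0.527), and none was called. The KO amplitude was 0.75 ± 0.44 (edgeR adjusted p = 0.497), and the difference between the rhythms, 1.72 ± 0.62 as the length of the difference of the fitted waves, was not called (edgeR adjusted p = 0.116). It was called in 2 of 48 fits that left out 1 mouse, without WT mouse 32 or KO mouse 37, where the lowest adjusted p was 0.0368.

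At ZT16 the KO mice had 2.83, 9.97, 14.9 and 281 CPM of Igfbp1, a 99.5-fold range among mice of 1 genotype and time, and the WT mice had 4.74, 10.5, 18.2 and 168 CPM. The within-group SD was 1.44 in WT and 1.63 in KO on the log2 scale, above 99.8% of the 9880 genes in each genotype. Irs2 came next (0.51 in WT and 0.79 in KO), followed by Igfbp2 (0.50 and 0.64) and Irs1 (0.31 and 0.59), while Insr (0.16 and 0.19) was near the median of all genes. The single mice with the highest Igfbp1 at ZT16, WT mouse 32 and KO mouse 30, also had the highest Irs2 of their groups, 29.2 and 22 CPM. WT mice 45 and 32, with the highest Igfbp1 of all WT mice, lived alone. WT mice 8, 19 and 33 lived alone too and had 17.8, 4.74 and 17.1 CPM. Of these, mice 8 and 33 were the lowest of their groups. With housing in the model the WT rhythm of Igfbp1 was called (amplitude 1.53, edgeR adjusted p = 0.0208). KO mice 30 and 37, with the highest Igfbp1 of all KO mice (281 and 261 CPM), shared a cage with another mouse each.

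**Figure D3:**
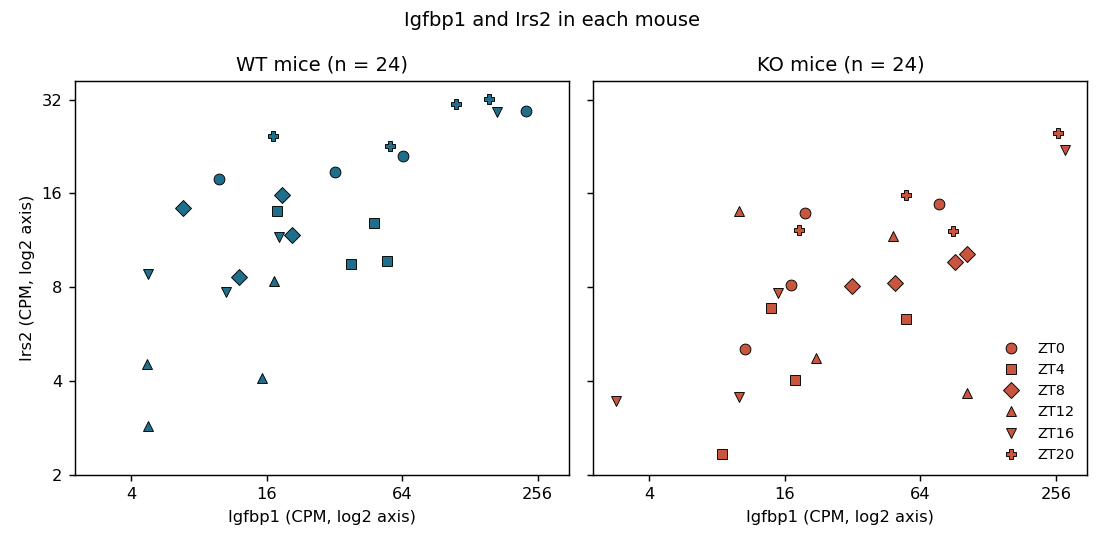
Irs2 against Igfbp1 in each mouse (CPM, log2 axes), WT on the left and KO on the right, 24 mice each, with a symbol for each time. Mice with over 100 CPM of Igfbp1 at ZT16, ZT20 and ZT0 had 22 CPM of Irs2 or more, while KO mouse 14 of ZT8 (103 CPM of Igfbp1, 10.2 CPM of Irs2) and KO mouse 21 of ZT12 (103 and 3.67 CPM) lie lower.

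Whether the 2 fasting-raised genes varied together among mice of the same genotype and time was tested on deviations from the group means, among 22 relations computed (11 per genotype). Irs2 and Igfbp1 gave r = 0.67 and rho = 0.55 in WT (n = 24, permutation p = 0.00449 and 0.0155, adjusted 0.0693 and 0.114). In KO they gave r = 0.58 and rho = 0.51 (n = 24, permutation p = 0.036 and 0.0385, adjusted 0.198 and 0.212). Without the 2 mice farthest from the median of Irs2, r was 0.51 in WT and 0.56 in KO. Without KO mouse 21, r in KO was 0.75 (adjusted permutation p = 0.0349). Igfbp1 and Pck1, the rate-limiting enzyme of glucose production, gave r = 0.70 and rho = 0.66 in WT (permutation p = 0.00635 and 0.00339) and r = 0.55 and rho = 0.60 in KO (permutation p = 0.00945 and 0.00629), with adjusted p of 0.0693 for both r and 0.0692 for both rho; r was 0.53 and 0.52 without the 2 farthest mice. None of the 22 relations passed the adjustment.

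Igfbp2, the other binding protein (ENSMUSG00000039323, chr1:72871077-72899048), had the smallest p of the 9 genes for the difference averaged over the times. The WT mice had 122 to 443 CPM (median 274) and the KO mice 58.2 to 402 CPM (median 163). Its mean was lower in KO at each of the 6 times, from 0.422-fold at ZT4 to 0.808-fold at ZT12, although the mice overlapped at every time. At ZT4 the WT values were 216, 240, 301 and 303 CPM and the KO values 58.2, 70.2, 93.2 and 226 CPM, so that 3 of 4 KO mice lay below all WT mice. Averaged over the times KO minus WT was -0.61 ± 0.16 (log2, SE), or 0.653-fold, with an edgeR adjusted p of 0.0143. In the 11 cages with a mouse of each genotype, Igfbp2 was lower in the KO mouse in 11, and the fit with these cages as pairs gave -0.82 ± 0.17 (edgeR adjusted p = 0.0363). The call held under all 10 alternatives that left out no single mouse, with differences from -0.61 to -0.88. Adding body weight as a covariate gave -0.88 (edgeR adjusted p = 0.0029). No rhythm of Igfbp2 was called in WT (amplitude 0.096 ± 0.16, edgeR adjusted p = 0.867) or KO (0.35 ± 0.16, edgeR adjusted p = 0.332).

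**Figure D4:**
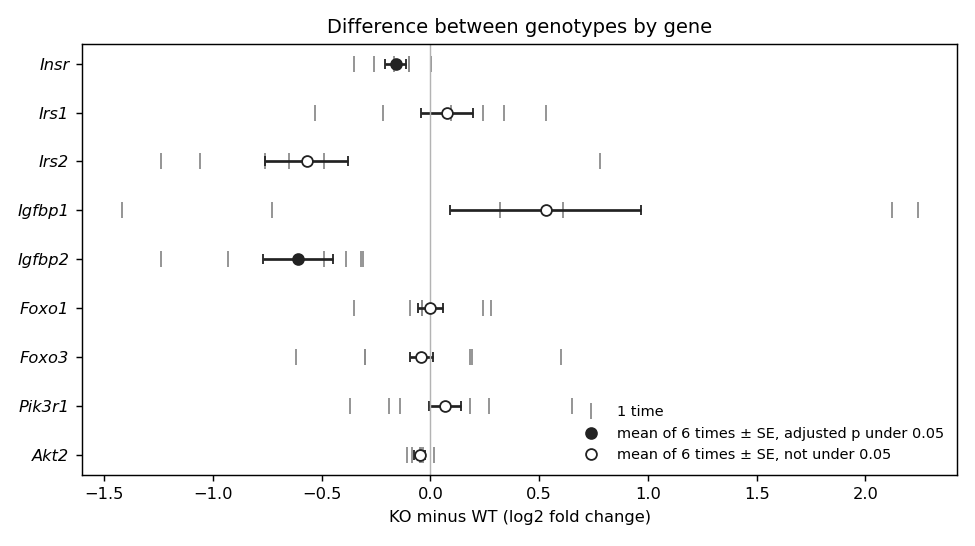
KO minus WT (log2 fold change) of the 9 genes: circles are the mean of the 6 times with its SE, filled where the edgeR adjusted p was under 0.05, and grey ticks are the single times. Insr (-0.16) and Igfbp2 (-0.61) are filled; the ticks of Igfbp2 are all below 0, while those of Igfbp1 lie between -1.42 and 2.24.

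Any change over the 6 times, without an assumed wave, was called in WT for Irs1 (edgeR adjusted p = 0.00137), Irs2 (0.00148), Foxo3 (1.03e-05) and Pik3r1 (0.000373), which makes 4 of 9 against 47.7% of all genes. In KO the lowest edgeR adjusted p values of the same test were those of Foxo3 (0.115), Insr (0.126) and Irs2 (0.195). The lowest adjusted p values of a KO rhythm were those of Insr (0.102) and Foxo3 (0.115), and 0 of 9 were called in DESeq2 too. The number of rhythmic genes in KO over the whole table depended on the method (147 in edgeR, 455 in DESeq2).

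The rest of the pathway was described by lists of known genes. Of 37 other genes of insulin signal transduction tested, 1 was higher and 4 were lower in KO averaged over the times. Of all genes, 4.91% were higher and 3.86% lower. Leaving out single mice gave 1 to 2 higher and 2 to 6 lower (2 without KO mouse 6). With the 11 cages as pairs 0 were called, in a fit that called 215 of all 14836 genes. Trib3, an inhibitor of AKT, was lower (-0.94 ± 0.17, log2, SE, edgeR adjusted p = 0.00031), and Akt1 was higher by 0.17 ± 0.038 (edgeR adjusted p = 0.0031). By group means Trib3 was lower in KO mainly at ZT4 (2.39 against 13.9 CPM in WT) and ZT8 (2.07 against 17.3 CPM). Its KO mean was above WT at ZT16 (2.51 against 2.07 CPM) and ZT20 (4.1 against 2.48 CPM). Inppl1, a lipid phosphatase that opposes PI3 kinase, differed by -0.13 ± 0.030 and Pik3cb, a catalytic subunit of PI3 kinase, by -0.11 ± 0.034 (edgeR adjusted p = 0.00382 and 0.0378). In WT 22 of the 37 were rhythmic (47.9% of all genes) and in KO 0 (0.991% of all genes). The rhythm differed for 14 (22.7% of all genes). Trib3 had a WT amplitude of 1.64 ± 0.19 and peaked at ZT5.7, Inpp5k, another lipid phosphatase, of 0.36 ± 0.043 at ZT4.9, Mtor, a growth kinase, of 0.32 ± 0.057 at ZT3.3 and Eif4ebp1, its target in translation, of 0.37 ± 0.055 at ZT8.0. Of these 22 peaks 11 fell between ZT0 and ZT6, where 24.7% of the 7111 peaks of all WT rhythmic genes fell and none of the 6 peaks of the genes described here.

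Of 10 other genes of the insulin-like growth factor (IGF) system, Igfbp4 was higher in KO averaged over the times, by 0.12 ± 0.039 (edgeR adjusted p = 0.0495). None was lower. Of all genes, 4.91% were higher and 3.86% lower. The KO mean of Igfbp4 was above WT at ZT0, ZT4 and ZT20 (1900 against 1180 CPM at ZT0). It was below WT at ZT8, ZT12 and ZT16 (1820 against 2250 CPM at ZT12). The call on Igfbp4 was lost under 6 of 10 alternatives. The number of higher genes changed in 36 of 48 fits that left out 1 mouse, which gave 0 to 2. In WT 5 of the 10 were rhythmic, among them Igfbp4 (amplitude 0.45 ± 0.043, peak ZT11.0), Igf1 (0.31 ± 0.048, ZT13.6), Igfals, the subunit that holds IGF in the blood (0.36 ± 0.062, ZT14.6), and Igfbp5 (0.65 ± 0.11, ZT14.9). In KO 0 of 10 were, and the rhythm differed for 4. Over all genes these shares were 47.9% in WT, 0.991% in KO and 22.7% for the difference. Of the 5 WT peaks, 1 fell between ZT6 and ZT12, 3 between ZT12 and ZT18 and 1 between ZT18 and ZT24. Of the peaks of all WT rhythmic genes, 23.9%, 25.7% and 25.7% fell there. The peak of Igfbp1 (ZT21.8) also lay between ZT18 and ZT24.

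Of 22 genes that fasting raises in liver, 3 were lower in KO over the times and none was higher (3.86% and 4.91% of all genes). These were Angptl4, an inhibitor of lipoprotein lipase (-0.52 ± 0.13, edgeR adjusted p = 0.00605), Lpin2, a lipin phosphatase (-0.32 ± 0.093, 0.0239), and Creb3l3, a transcription factor of the fasted liver (-0.25 ± 0.058, 0.0036). Of 18 genes that feeding raises, Pklr, the liver pyruvate kinase (0.56 ± 0.13, edgeR adjusted p = 0.00566), and Thrsp, a lipogenic factor (0.61 ± 0.18, 0.0272), were higher, and Scd1, a fatty acid desaturase (-0.33 ± 0.11, 0.0404), was lower; the call on Scd1 was lost in 27 of 48 fits that left out 1 mouse. With weight as a covariate, or with the 11 cages as pairs, 0 of the 18 were higher or lower, and with the pairs 0 of the 22 fasting genes were. Of all 14836 genes, only 705 were called with weight and 215 with the pairs. These averages did not hold at every time. The KO mean of Thrsp was below WT at ZT12 (815 against 1530 CPM) and ZT16 (569 against 1210 CPM), and that of Pklr at ZT12 (182 against 252 CPM). The KO mean of Lpin2 was above WT at ZT0 (194 against 136 CPM) and ZT20 (250 against 200 CPM). The median KO minus WT difference was -0.075 over the fasting list, 0.091 over the feeding list and -0.042 over the 9 signal genes, against 0.001 over all genes. The medians differed in sign between times. Over the feeding list they were 0.42, 0.31 and 0.71 at ZT0, ZT4 and ZT8 and -0.43, -0.22 and -0.21 at ZT12, ZT16 and ZT20. Over the fasting list they ran from 0.16 at ZT0 to -0.41 at ZT8. At ZT8, 9 of the 22 fasting genes were called (2 higher, 7 lower), against 7.66% of all genes (3.65% higher, 4.01% lower). Of 16 genes of glucagon and cyclic AMP signalling, 2 adenylyl cyclases were lower, Adcy6 (-0.26 ± 0.061, edgeR adjusted p = 0.00404) and Adcy9 (-0.29 ± 0.081, 0.0205). With the pairs 0 of the 16 were called. In WT 10 were rhythmic (47.9% of all genes) and in KO 0 (0.991% of all genes). Among the 10 were Adcy6 (amplitude 0.42 ± 0.062, peak ZT7.9) and the kinase gene Sik1 (0.81 ± 0.12, ZT15.5). Prkar2a (0.36 ± 0.053, ZT18.1) and Prkar1a (0.15 ± 0.024, ZT1.3), which encode regulatory subunits of protein kinase A, were among them too.

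In WT, 14 of the 22 fasting genes and 17 of the 18 feeding genes were rhythmic, against 47.9% of all genes, in edgeR. In KO 0 of each were, where only 0.991% of all genes were called. The rhythm differed for 10 of the fasting and 11 of the feeding genes, against 22.7% of all genes. Fasting-raised genes did not peak at 1 time. Cpt1a, the entry enzyme of fat oxidation (amplitude 0.58 ± 0.066), and Pck1 (0.56 ± 0.16) peaked at ZT8.0 and ZT8.4, and Lpin1 (1.29 ± 0.19) at ZT10.9. Cdkn1a (1.90 ± 0.24) and Pdk4, which spares glucose (1.44 ± 0.14), peaked at ZT19.3 and ZT21.1. Igfbp1 and Irs2 (ZT21.8 and ZT22.3) lay with the last 2 and not with Pck1. Of the 14 fasting peaks 9 fell between ZT6 and ZT12 and 4 between ZT18 and ZT24, where 23.9% and 25.7% of the peaks of all WT rhythmic genes fell. Feeding-raised genes peaked between ZT12 and ZT18 in 9 of 17 cases, against 25.7% of all rhythmic genes, as did Foxo1 and Pik3r1. Thrsp (1.54 ± 0.18) peaked at ZT14.2, Nrg4, a secreted growth factor (0.90 ± 0.11), at ZT11.5, Acly, which makes acetyl-CoA for fat synthesis (0.70 ± 0.11), at ZT18.2 and Acacb, an enzyme that restrains fat oxidation (0.88 ± 0.13), at ZT19.0.

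**Figure D5:**
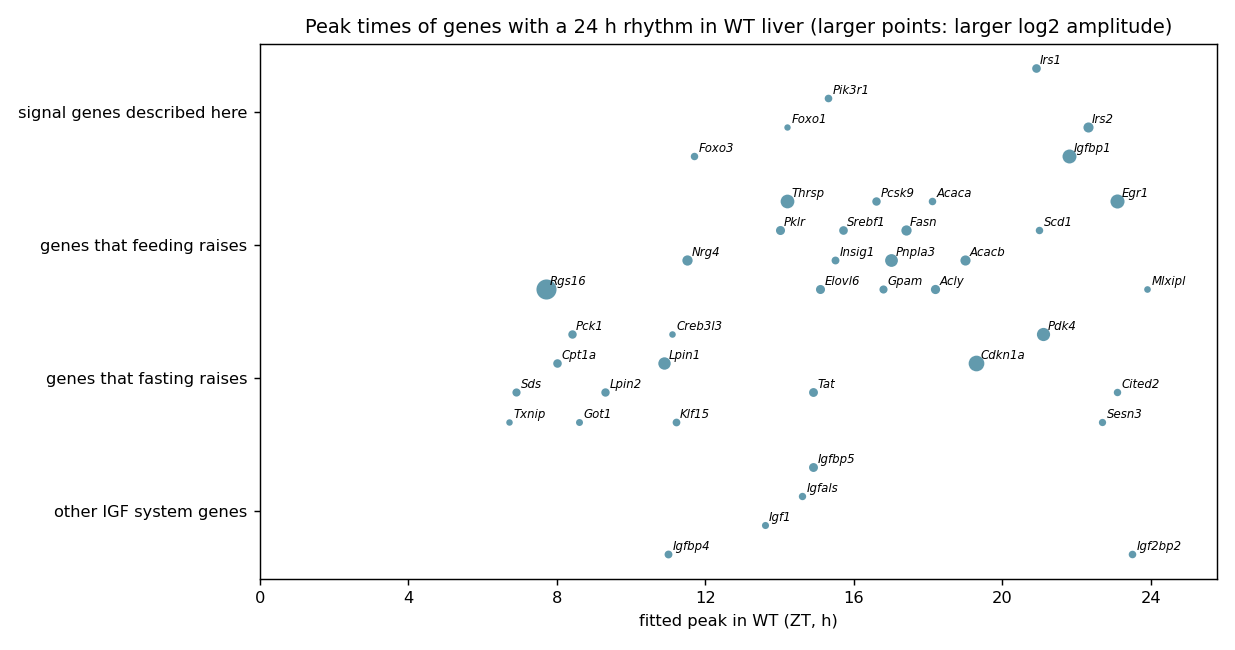
Fitted peak time in WT liver (ZT, h) of genes whose 24 h rhythm was called, by gene list; larger points have a larger log2 amplitude, and the height of a point within its list has no meaning. Irs1, Irs2 and Igfbp1 lie near ZT21 to ZT22, most fasting-raised genes between ZT6 and ZT12, and most feeding-raised genes between ZT12 and ZT18.

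The genes whose 12 group means (log2 CPM, 6 times in 2 genotypes) followed those of Irs2 most closely, among 9362 named genes with at least 5 CPM, were Eif3a (r = 0.912), Mllt4 (0.908), H6pd (0.908), Ftsjd2 (0.883) and Rora (0.877). For Igfbp1 they were Ccng2 (0.883), Rnd1 (0.878), Atp6v0a1 (0.825), Cpeb2 (0.824) and Atxn7l1 (0.821). For Pik3r1 they were Ccdc117 (0.949), Pde12 (0.942), Ss18 (0.934), Tbl2 (0.932) and Adpgk (0.931). The 12 points share the same 48 libraries and cage sets, and these values are a description.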

How the data were processed

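Livers of 48 mice were sequenced as poly-A RNA with a kit that does not record strand, per the labels' protocols, with 13 PCR cycles and 2 libraries per lane. The authors used CASAVA, STAR 2.4.0f1 and mouse build mm9, per the submitters' processing notes; the counting tool, gene models and handling of reads that match several genes are not given in the sources used here. The authors deposited whole-number read counts per gene. Their totals differ by 0.302% (SD over the mean), so the libraries were brought to a common depth by a step that is not described, and the original depth is unknown. Column headers call the times CT where the labels have ZT. Between replicates the variance was 30.3 to 171 times that of counting alone, so no 2 replicates were the same library. Nothing besides mouse, cage and weight marks a batch in the labels.

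From these counts, edgeR 4.0.16 (R 4.3.3; filterByExpr with minimum count 10, TMM, robust quasi-likelihood fit) was run on 14836 genes with 99.975% of the counts, once with a mean for each of the 12 groups (36 residual degrees of freedom) and once with a 24 h wave fitted to each genotype (42). All 48 libraries entered each fit. Amplitudes are mean to peak on the log2 scale, their SE are approximate and derived from the F statistics, and the fit rests on 1 cycle of 6 times. CPM levels are edgeR's, log2 CPM used a prior count of 2, and exon lengths for levels per kilobase and for the length trend are GENCODE vM21's. Relations across mice were tested by two-sided permutation within groups (100000 resamples). Alternatives were total counts, DESeq2 size factors, no filter, DESeq2 1.42.0, body weight or housing as a covariate, limma 3.58.1 voom with cage as a random block, an added 12 h wave, a prior count of 0.5, and leaving out mice; the exon length trend as a covariate, cage mates of both genotypes as pairs, and relations without KO mouse 21, were added after the data were seen. Named genes are the 9 members, up to 4 called genes of smallest p per list and test, and the 5 genes most alike in group means; Pck1 is named for its place in a relation, and single mice for their values. The members and lists were chosen with earlier results of these data known. Promoters are RefSeq's in GRCm38.p6, and coordinates of genes are mm9 as deposited. The feeding list was counted without 1 gene that is not reported here. Models were tested on simulated data.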

Additional observations from a re-analysis of the deposited data

Results flagged for a closer look

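Of 108 groups of 4 mice (9 genes in 12 groups), 6 had a mouse whose gap to the nearest other mouse on the log2 CPM scale, as a share of the group's range, was above Dixon's critical value; chance flags about 1 in 20 groups. Foxo3 in WT mice of ZT0 was 43.8 CPM in mouse 45, which lived alone, against 39.3 to 39.7 CPM in the other 3 (gap 0.906 of the range), a small difference in a tight group. Irs1 in WT mice of ZT12 was 21.8 CPM in mouse 23, against 11.3 to 12.3 CPM (0.868). Foxo1 in KO mice of ZT16 was 67 CPM in mouse 31, against 48.4 to 49.8 CPM (0.912). Pik3r1 in KO mice of ZT20 was 195 CPM in mouse 34, against 136 to 141 CPM (0.886). Akt2 was lowest in WT mouse 36 of ZT20 (104 CPM, with the other 3 at 114; 0.954) and in KO mouse 41 of ZT0 (94.4 CPM, against 108 to 109; 0.938). On the log2 scale Igfbp1 and Irs2 met this criterion in no group.

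The effect of time differed between genotypes for Foxo3 and Pik3r1 by the interaction test (edgeR adjusted p = 3.52e-05 and 0.02), and the 24 h rhythm differed for Foxo1, Foxo3 and Pik3r1 (edgeR adjusted p = 0.0218, 6.95e-06 and 0.00484).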

How the results depend on the processing

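Over 68 results on the 9 genes and 648 values under alternatives, 627 kept direction and side of the threshold, 8 passed it newly, 10 missed it newly and 3 changed sign. Irs1 and Pik3r1 averaged over times were -0.24 and -0.10 in cage mates, and Foxo1 was 0.028 with the exon length trend, and without single mice lay between -0.024 and 0.015. Mouse numbers are unique and pair no samples, but 11 cages held a KO and a WT mouse of the same time. With these 22 mice as pairs and cage as replicate block (10 residual degrees of freedom), 1 of the 9 genes (Igfbp2) and 215 of all genes were called, in a fit that left out 26 mice. Cages also entered as a random block (within-cage correlation 0.081 for group means and 0.158 for the 24 h wave). Averaged over times, 1 of the 9 genes was called with body weight and 1 with the exon length trend, and 1 to 3 without single mice; 705 of all genes were called with body weight. The interaction was called for 1 gene without KO mice 20, 21, 43 and 44. Calls at single times numbered 5 in DESeq2, 5 without those 4 mice and 5 with the exon length trend. Totals over all genes for these single-time calls, this interaction fit and the average with the exon length trend are not given here. Steps within a cage set gave 1 call with total counts, 1 with no filter, 1 in limma voom, 4 with the exon length trend, and 1 to 3 without single mice (1864 to 4014 over all genes). Genes changing over times in KO numbered 62 with total counts, 91 with DESeq2 size factors, 14 with no filter, 996 in DESeq2, 62 with housing, 19 in limma voom and 0 with the exon length trend, and 1 to 1048 without single mice. Rhythmic genes in KO numbered 25 with no filter, 455 in DESeq2, 41 with housing, 78 in limma voom, 342 with a 12 h wave and 7 with the exon length trend, and 2 to 492 without single mice; 0 to 1 of the 9 genes was called there, Insr without KO mouse 10 (0.0477). In KO, the relation of Irs2 and Igfbp1 was 0.87 without the 4 mice (adjusted p 0.00528 by permutation) and 0.75 without KO mouse 21; Irs2 and Pik3r1 gave -0.66 without KO mouse 21 (0.0349). Irs2 and Insr gave -0.05 and Irs1 and Irs2 -0.18 without the 4 mice; Irs1 and Irs2 gave -0.23 and Irs2 and body weight 0.01 without KO mouse 21. The causes were not tested. Depth as sequenced is unknown.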

Other observations

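Among mice of the same genotype and time, deviations of Igfbp1 from the group mean followed those of Irf2bp2 (r = 0.793 in WT and 0.915 in KO, 24 mice each) and Ip6k2 (r = 0.860 and 0.823) most closely of 9362 genes, and Mnt was among the next (0.725 in WT, 0.731 in KO). Without KO mouse 21 the KO values were 0.910 for Irf2bp2 and 0.810 for Ip6k2, and Irf2bp2 (0.830) was also the gene whose deviations followed those of Irs2 most closely there. For Pik3r1 the closest genes in WT were the clock gene Per2 (0.893) and Usp2 (0.869). These genes were chosen after their values were seen, the mice share libraries and cages, and the values are given as a description with no test.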
